A study of Mus musculus with 22 samples.

Results

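Of the 43430 genes in the tables, 8 are described here across all 22 libraries: Btg2, Gpr171, Prr33, Gramd1a, Vamp2, Hsd11b1, Tdrp and 4732440D04Rik. They were chosen from these data because their effect of a Vav-driven E2a deletion lay well below 0 at 8 weeks and much nearer to 0 at 4 weeks. What the choice used, namely the Vav knockouts and their controls at both ages, is therefore given below as a description. Counts of calls among the 8 for these contrasts are listed only with the alternative fits at the end, and nothing is read from them. The working name of the set, genes that fall only by 8 weeks, held for Btg2, Tdrp and 4732440D04Rik only in the sense that knockout and control libraries overlapped at 4 weeks. For Tdrp this overlap was narrow, 6.30 FPKM in 1 knockout against 6.29 FPKM in 1 control. Its 4-week log2 change of -0.36 was larger in size than those of Prr33 (-0.24), Gramd1a (-0.27) and Vamp2 (-0.24). For Gpr171, Prr33, Gramd1a, Vamp2 and Hsd11b1 every Vav knockout library was already below every control library at 4 weeks, so the set is one of larger falls at 8 weeks.

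RNA came from mouse thymocytes sorted as CD45.1+ CD4+CD8+, the double-positive stage at which the T cell receptor alpha chain is rearranged. All groups carried floxed E2a alleles (E2aF/F), and controls had no Cre in their stated genotype. There were 3 controls and 3 knockouts with VavCre at the age of 4 weeks, 3 controls and 3 knockouts with LckCre at 4 weeks, and 3 controls and 3 VavCre knockouts at 8 weeks. Another 4 libraries were from VavCre E2aF/F mice that had been sublethally irradiated and given wild-type bone marrow as competitor, sampled 4 weeks after the transplant and labelled 8 weeks of age. The Vav promoter drives Cre throughout the blood system, and the Lck promoter from early thymocytes on. The sources do not say which cells of the transplanted mice bore CD45.1, and replicates are named without saying whether they were separate animals, so a p-value here measures the spread between libraries.

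E2a is encoded by Tcf3, and its products are basic helix-loop-helix transcription factors that bind the E-box motif and direct lymphocyte development. In double-positive thymocytes they keep cells in a resting, rearranging state, and mice without E2a are prone to T cell leukaemia. The genes described here belong to no single pathway: they act in messenger RNA decay, receptor signalling, sterol transport, vesicle fusion and glucocorticoid metabolism, and some have no settled role in T cells.

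Values are FPKM, fragments scaled to gene length and sequencing depth. The lowest values implied between 5.49 and 37.5 M (mega) reads per library, the Lck knockout replicate 2 being the shallowest. Tcf3 was lower in each knockout library (1.15 to 2.32 FPKM) than in each control library (6.39 to 8.22 FPKM), in the transplanted group as well (1.21 to 2.32 FPKM). Libraries of a group correlated at 0.979 or more across genes, except the transplanted ones, at 0.935 to 0.968. Markers of double-positive thymocytes (9 genes, among them Cd4, Cd8a, Rag1 and Rag2) were at 1 FPKM or more in every library, except Ptcra in 1 of the 8-week Vav knockouts (0.911 FPKM). Their sum was 4561 to 4934 FPKM in the 8-week controls, 2198 to 2471 FPKM in the 8-week Vav knockouts and 1369 to 3447 FPKM in the transplanted group. At 4 weeks it was 4594 to 4743 FPKM in Vav controls, 3304 to 3955 FPKM in Vav knockouts, 4541 to 4758 FPKM in Lck controls and 4206 to 4412 FPKM in Lck knockouts. In bulk RNA, fewer cells of a type and less RNA per cell cannot be told apart, and the part of this shift in the values below was not tested.

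Markers of other cell types at 8 weeks were low apart from B cell markers, whose sum of 6 genes was 179 to 214 FPKM in controls, 95.2 to 128 FPKM in Vav knockouts and 96.2 to 123 FPKM in the transplanted group, with Ighm the one marker at 1 FPKM or more in all libraries of each group and Pax5 and Ebf1 at 0 in both knockout groups. The 5 erythroid markers summed to 14.2 to 31.8, 3.52 to 16.7 and 29.1 to 72.6 FPKM in the same order, and the 5 macrophage and granulocyte markers to 0.620 to 3.33, 2.54 to 8.90 and 2.12 to 20.5 FPKM. The 5 dendritic cell markers reached 0.927, 7.41 and 3.41 FPKM, the 4 natural killer cell markers 1.14, 2.09 and 2.17 FPKM, and the 6 thymic stroma markers 1.56, 1.73 and 1.41 FPKM. Whether these cells contributed to the members' values was not tested. By Xist against Ddx3y all 3 controls at 8 weeks were female and all 3 untransplanted knockouts male, so genotype and sex cannot be told apart in that comparison. Both sexes were present in each Vav group at 4 weeks (2 of 3 libraries with Xist above Ddx3y in each) and in the transplanted group (replicates 1 and 2 with Xist, 3 and 4 with Ddx3y).

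Promoter sequences of 4 of the 8 genes were matched in the RefSeq tables for GRCm38.p6 (mm10). Those of Prr33, Btg2 and Hsd11b1 are shown, since E proteins bind E-boxes and these windows span the range of E-box letters found. Each is the 250 bases before the annotated start, 5′ to 3′ on the gene's own strand (minus for all), with the letters CANNTG in capitals; the motif reads the same on both strands. Prr33 is at chr7:142506772-142507021, Btg2 at chr1:134079156-134079405 and Hsd11b1 at chr1:193242361-193242610. The Hsd11b1 window is at an internal start, within the span of its gene, chr1:193221634-193264075.

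Prr33: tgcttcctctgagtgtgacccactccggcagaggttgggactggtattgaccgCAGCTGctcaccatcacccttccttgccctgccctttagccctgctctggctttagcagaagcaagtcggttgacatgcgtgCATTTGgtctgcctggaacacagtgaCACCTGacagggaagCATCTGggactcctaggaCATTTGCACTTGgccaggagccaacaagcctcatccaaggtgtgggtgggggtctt

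Btg2: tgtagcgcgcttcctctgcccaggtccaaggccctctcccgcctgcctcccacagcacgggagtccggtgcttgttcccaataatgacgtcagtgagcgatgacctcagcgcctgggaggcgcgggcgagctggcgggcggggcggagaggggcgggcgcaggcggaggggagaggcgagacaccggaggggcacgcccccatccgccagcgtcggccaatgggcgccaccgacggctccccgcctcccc

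Hsd11b1: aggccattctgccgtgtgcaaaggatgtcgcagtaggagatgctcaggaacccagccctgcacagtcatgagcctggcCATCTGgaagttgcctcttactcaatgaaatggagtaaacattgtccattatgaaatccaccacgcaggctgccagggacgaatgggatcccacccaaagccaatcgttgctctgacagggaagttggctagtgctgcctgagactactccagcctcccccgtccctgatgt

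The window of Prr33 held 6 CANNTG matches, and 2 of them were CAGCTG or CAGGTG (read as CACCTG on the other strand). Among 32841 RefSeq mouse promoters with windows of the same length, 66.2% held at least 1 CANNTG, the median was 1, and 3.84% held 4 or more. At least 2 matches to CAGCTG or CAGGTG were in 5.21%. Hsd11b1 held 1 CANNTG and Btg2 held 0 in a window with 73.2% G or C, against a median of 52.4% over all promoters. The matched window of Gramd1a, also at an internal start, held 1. These are letters in a window and not measured binding.

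**Figure D1:**
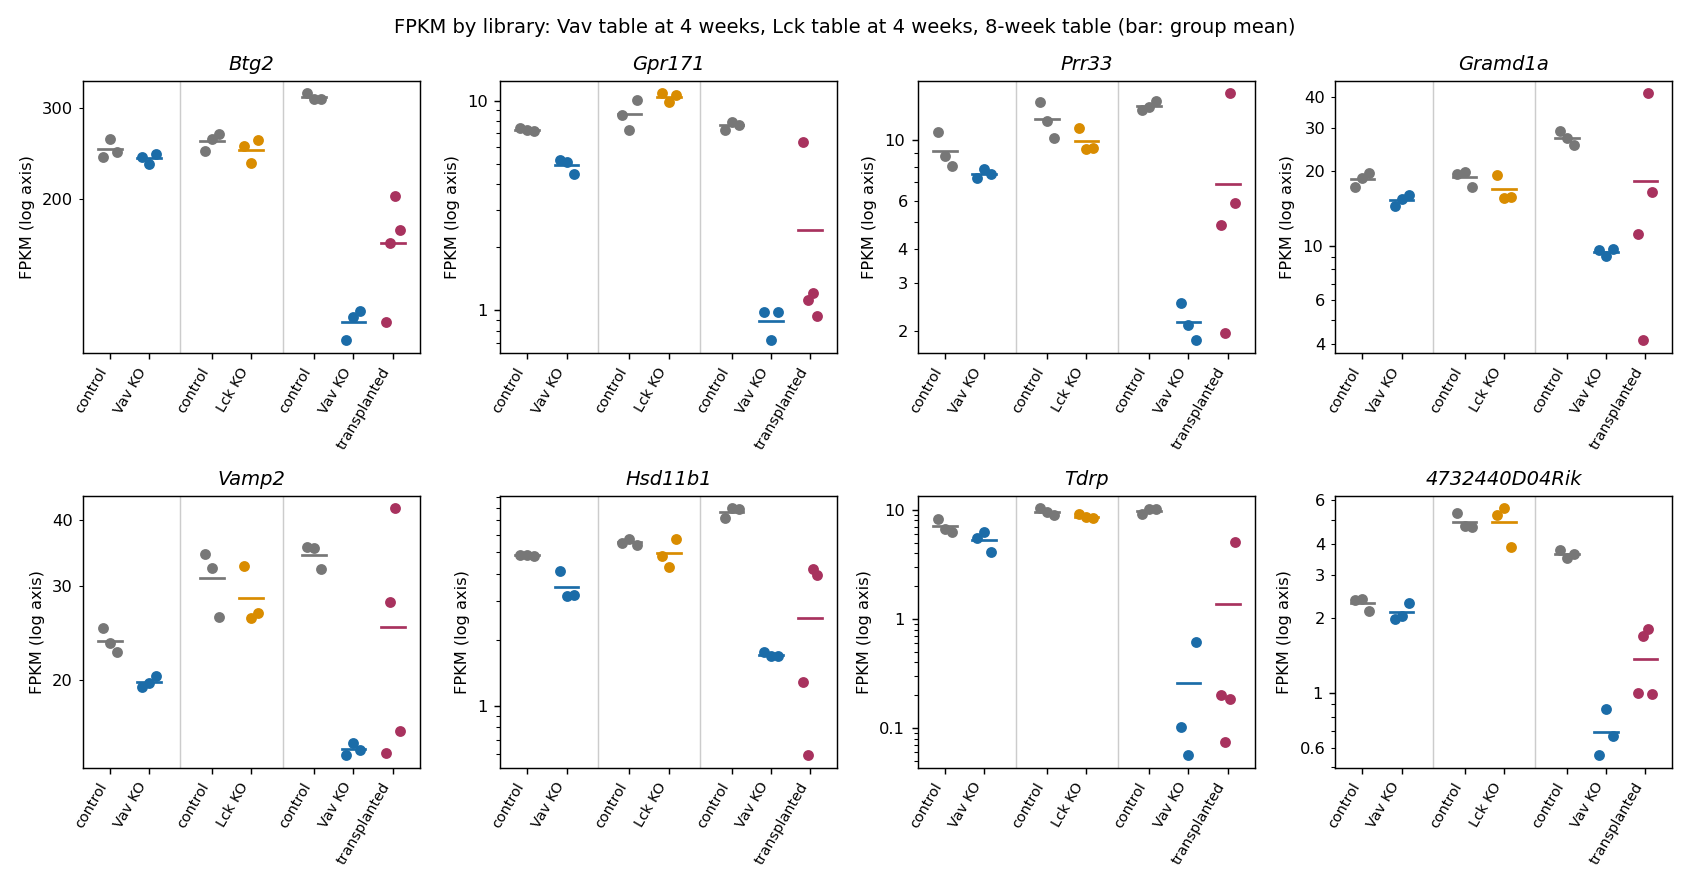
FPKM of the 8 genes in every library, on log axes that differ between panels, with the 3 deposited tables separated by grey lines. Dots are libraries and bars are group means; at 8 weeks all untransplanted Vav knockouts lie below all controls for each gene, while the 4 transplanted libraries are spread out, Gramd1a from 4.12 to 41.5 FPKM.

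At 8 weeks all 3 Vav knockout libraries were below all 3 controls for each of the 8 genes, which their choice favoured; the groups were apart in this direction at 28.7% of the 11632 genes tested. Nothing is read from this share, since the contrast chose the genes. At 4 weeks, the other contrast of the choice, the groups were apart for 5 of the 8 (18.7% of 10828 genes). The difference between the ages was largest for Tdrp and smallest for Vamp2. Size alone did not set the choice: 21 of 10489 genes had a more negative difference than any of them, and 335 had one at or below that of Vamp2. Ranked by limma's adjusted p for the same difference, the 8 genes were among the 12 smallest of the falls. Only 11 falls, the members included, had an adjusted p at or below the largest of the members. Such a ranking favours genes with a small spread between the Vav libraries that entered the choice.

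Btg2 (ENSMUSG00000020423, chr1:134075170-134079120, minus strand) encodes an antiproliferative adaptor that brings the CCR4-NOT deadenylase to messenger RNAs, and was by far the most abundant of the 8. Vav control libraries at 4 weeks measured 241, 262 and 246 FPKM, against 241, 233 and 245 FPKM in the knockouts. In the 8-week table, control libraries were at 319.7, 312 and 312 FPKM and knockout libraries at 107, 119 and 122 FPKM. The groups overlapped at 4 weeks and were widely apart at 8 weeks, where the knockouts held 33.9% to 38.7% of the control mean. The log2 change on the scale of log2(FPKM + 1) was -0.06 (SE 0.0655) at 4 weeks and -1.44 (SE 0.196) at 8 weeks. In the Lck table the controls had 248, 261 and 267 FPKM and the knockouts 253, 235 and 259.6 FPKM, which overlapped. The transplanted libraries had 116, 165, 203 and 174 FPKM, all below the controls and 3 of them above every untransplanted knockout.

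Gpr171 (ENSMUSG00000050075, chr3:59096448-59101821, minus strand) encodes a G protein-coupled receptor of the P2Y-like group. In the Vav table at 4 weeks, control libraries were at 7.42, 7.22 and 7.16 FPKM and knockout libraries at 5.24, 5.09 and 4.46 FPKM. By 8 weeks, controls measured 7.27, 7.92 and 7.68 FPKM, against 0.985, 0.719 and 0.979 FPKM in the knockouts. The knockouts were low at both ages, to 61.4% to 72.1% of the control mean at 4 weeks and 9.44% to 12.9% at 8 weeks. On the log2 scale the change was -0.48 (SE 0.0674) and -2.19 (SE 0.437). Lck controls had 8.57, 7.24 and 10.1 FPKM and Lck knockouts 10.8, 9.91 and 10.6 FPKM, the only one of the 8 whose Lck estimate was positive. Transplanted replicate 1 had 6.36 FPKM, close to the controls, and the other transplanted libraries had 1.12, 1.21 and 0.946 FPKM, close to the untransplanted knockouts. These levels stood for 284, 191 and 360 reads in the 8-week controls, 42, 23 and 41 in the knockouts, and 193, 49, 55 and 34 in the transplanted libraries. Gpr171 lies inside Med12l, a Mediator-subunit gene on the other strand with which it shares 0 exon bases; Med12l was at 0.524 ± 0.0580 FPKM in the 8-week controls and 0.113 ± 0.109 FPKM in the knockouts (SD, n = 3 each).

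Gramd1a (ENSMUSG00000001248, chr7:31130127-31155896, minus strand) encodes Aster-A, which moves cholesterol from the plasma membrane to the endoplasmic reticulum. Vav control libraries at 4 weeks measured 17.3, 18.9 and 19.8 FPKM, against 14.5, 15.4 and 16.0 FPKM in the knockouts. In the 8-week table, control libraries were at 29.2, 27.3 and 25.5 FPKM and knockout libraries at 9.59, 9.04 and 9.70 FPKM. The controls were higher at 8 weeks than in either 4-week table, and the knockouts lower. The log2 change was -0.27 (SE 0.0680) at 4 weeks and -1.44 (SE 0.594) at 8 weeks, the latter with the widest error of the 8. The shared spread of the 8-week fit includes the transplanted libraries, which had 11.1, 4.12, 41.5 and 16.5 FPKM: replicate 3 was above every control and replicate 2 below every untransplanted knockout. Lck controls had 19.5, 20.0 and 17.3 FPKM and Lck knockouts 19.4, 15.6 and 15.8 FPKM, which overlapped. An antisense gene, G630030J09Rik, shares 420 exon bases with Gramd1a and was at 0.582 ± 0.120 FPKM in the 8-week controls and 0.0827 ± 0.104 FPKM in the knockouts (SD, n = 3 each). Reads from the shared bases cannot be told apart without strand.

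Vamp2 (ENSMUSG00000020894, chr11:69088490-69092384, plus strand) encodes synaptobrevin, a vesicle SNARE protein that drives membrane fusion. In the Vav table at 4 weeks, control libraries were at 25.1, 23.5 and 22.6 FPKM and knockout libraries at 19.4, 19.8 and 20.4 FPKM. By 8 weeks, controls measured 35.5, 35.4 and 32.4 FPKM, against 14.5, 15.3 and 14.8 FPKM in the knockouts. Its knockouts held 42.1% to 44.4% of the control mean at 8 weeks, the highest shares among the 8. On the log2 scale the change was -0.24 (SE 0.0566) and -1.16 (SE 0.33). Lck controls had 34.5, 32.5 and 26.3 FPKM and Lck knockouts 32.8, 26.2 and 26.7 FPKM. Transplanted libraries had 14.6, 28.03, 42.1 and 16.1 FPKM: 2 near the untransplanted knockouts, 1 between the groups and replicate 3 above the controls.

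Hsd11b1 (ENSMUSG00000016194, chr1:193221634-193264075, minus strand) encodes the enzyme that regenerates active glucocorticoid inside cells; double-positive thymocytes are known for their sensitivity to that hormone. Vav control libraries at 4 weeks measured 4.88, 4.86 and 4.82 FPKM, against 4.10, 3.15 and 3.19 FPKM in the knockouts. In the 8-week table, control libraries were at 7.21, 7.97 and 7.88 FPKM and knockout libraries at 1.75, 1.69 and 1.68 FPKM. The 8-week knockouts were close to each other, at 21.9% to 22.8% of the control mean. The log2 change was -0.39 (SE 0.0916) and -1.68 (SE 0.403). Lck controls had 5.504, 5.78 and 5.40 FPKM and Lck knockouts 4.82, 4.29 and 5.78 FPKM. The transplanted libraries fell into a low pair, replicates 1 and 2 at 1.28 and 0.594 FPKM, below every untransplanted knockout, and a higher pair, replicates 3 and 4 at 4.20 and 3.94 FPKM, still below every control. The low pair had Xist above Ddx3y and the higher pair the reverse. Hsd11b1 overlaps Gm38118 on the same strand, and Lamb3 and 4930570N18Rik on the other strand, each with 0 shared exon bases. Gm38118 was at 3.26 ± 0.817 FPKM in the 8-week controls and 0.467 ± 0.0354 FPKM in the knockouts (SD, n = 3 each). Whether reads of overlapping genes entered the Hsd11b1 values was not tested.

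Tdrp (ENSMUSG00000050052, chr8:13952008-13975032, minus strand), named for a role in testis development, had the largest difference between the ages. In the Vav table at 4 weeks, control libraries were at 8.18, 6.67 and 6.29 FPKM and knockout libraries at 5.505, 6.30 and 4.06 FPKM. By 8 weeks, controls measured 9.13, 10.2 and 10.2 FPKM, against 0.102, 0.0567 and 0.614 FPKM in the knockouts. The 4-week groups overlapped narrowly, by 1 library of each, and the 8-week knockouts held 0.577% to 6.25% of the control mean. On the log2 scale the change was -0.36 (SE 0.153) and -3.13 (SE 0.580). The 8-week knockout values stood for 12, 5 and 71 reads, against 984, 676 and 1320 in the controls, so their own ratio is imprecise. Lck controls had 10.3, 9.48 and 8.92 FPKM and Lck knockouts 9.06, 8.49 and 8.41 FPKM. Transplanted replicate 4 had 5.03 FPKM (499 reads), and the other transplanted libraries had 0.203, 0.0748 and 0.184 FPKM (17, 9 and 23 reads), within the range of the untransplanted knockouts.

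Prr33 (ENSMUSG00000043795, chr7:142491074-142506771, minus strand) is named for a proline-rich protein, while the GENCODE annotation used here lists it as a long intergenic RNA. Vav control libraries at 4 weeks measured 10.7, 8.73 and 8.05 FPKM, against 7.28, 7.85 and 7.49 FPKM in the knockouts. In the 8-week table, control libraries were at 12.9, 13.2 and 13.9 FPKM and knockout libraries at 2.54, 2.10 and 1.85 FPKM. The 4-week groups were apart by a narrow margin and the 8-week groups by a wide one. The log2 change was -0.24 (SE 0.0987) and -2.18 (SE 0.471). Lck controls had 13.7, 11.7 and 10.2 FPKM and Lck knockouts 11.1, 9.30 and 9.36 FPKM. The transplanted libraries had 4.90, 1.97, 14.8 and 5.88 FPKM, replicate 3 being above every control. Prr33 overlaps Lsp1, which encodes a lymphocyte actin-binding protein, on the other strand with 0 shared exon bases. Lsp1 was at 31.3 ± 2.01 FPKM in the 8-week controls, 8.11 ± 2.02 FPKM in the knockouts (SD, n = 3 each) and 23.3, 4.10, 19.1 and 24.3 FPKM in the transplanted libraries. The sources used here do not say if reads were counted by strand, and without strand reads from overlapping introns or unannotated exons of the pair cannot be told apart.

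4732440D04Rik (ENSMUSG00000090031, chr1:6209866-6215293, minus strand) is annotated as an antisense RNA and was the least abundant of the 8 in controls. In the Vav table at 4 weeks, control libraries were at 2.37, 2.39 and 2.14 FPKM and knockout libraries at 1.99, 2.05 and 2.31 FPKM. By 8 weeks, controls measured 3.79, 3.52 and 3.66 FPKM, against 0.560, 0.864 and 0.668 FPKM in the knockouts. The groups overlapped at 4 weeks and not at 8 weeks. On the log2 scale the change was -0.08 (SE 0.0753) and -1.46 (SE 0.176). Lck controls had 5.35, 4.75 and 4.68 FPKM and Lck knockouts 5.26, 5.59 and 3.90 FPKM, both above all libraries of the other tables. The transplanted libraries had 1.0, 1.70, 1.81 and 0.987 FPKM, all between the untransplanted knockouts and the controls. It shares 558 exon bases with Rb1cc1, an autophagy gene on the plus strand. Rb1cc1 was at 5.58 ± 0.396 FPKM in the 8-week controls and 3.97 ± 0.120 FPKM in the knockouts (SD, n = 3 each), a log2 change of -0.40 (SE 0.198). The strand used in counting is not known here either, so reads from the shared bases cannot be told apart.

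Ordered by deposited FPKM in the 8-week controls, the genes were Btg2, Vamp2 (34.4 ± 1.76 FPKM), Gramd1a (27.4 ± 1.82), Prr33 (13.3 ± 0.497), Tdrp (9.83 ± 0.607), Hsd11b1 (7.69 ± 0.416), Gpr171 (7.62 ± 0.328) and 4732440D04Rik (3.66 ± 0.134; SD, n = 3 each). Only the neighbours Hsd11b1 and Gpr171 overlapped in this order. The order rests on the gene lengths behind the FPKM: those found from whole reads were 8161 bases for Hsd11b1, 6140 for Tdrp and 2588 for Prr33, against 4251, 4695 and 2348 exon bases in GENCODE, and equal to GENCODE for Btg2 and Gpr171. The order among Prr33, Tdrp and Hsd11b1 therefore depends on which lengths are used. For Vamp2 the length found was 5397 bases against 3809 in GENCODE, and for 4732440D04Rik it was 6522 against 5428. No length was found for Gramd1a, so its order against Vamp2 could not be checked in this way. In the 8-week knockouts the order from Btg2 to Prr33 was kept, and Tdrp was last at 0.258 ± 0.310 FPKM.

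The difference between the ages, the quantity that chose the genes, was -1.38 (SE 0.0902) for Btg2, -1.71 (SE 0.108) for Gpr171, -1.94 (SE 0.142) for Prr33 and -1.17 (SE 0.0961) for Gramd1a on the log2 scale. It was -0.91 (SE 0.0790) for Vamp2, -1.29 (SE 0.115) for Hsd11b1, -2.77 (SE 0.248) for Tdrp and -1.38 (SE 0.117) for 4732440D04Rik. Each is made of a lower level in the 8-week knockouts and, for all but Gpr171, a higher level in the 8-week controls than in the Vav table at 4 weeks. For Gpr171 the controls differed by 0.06 and the knockouts by -1.65, so that 96.5% of the difference lay in the knockouts. For Vamp2 the controls differed by 0.52 and the knockouts by -0.40, and 43.3% lay in the knockouts. The shares were 84.3% for Tdrp, 75.8% for Btg2, 74.1% for Prr33, 63.9% for 4732440D04Rik, 55.9% for Hsd11b1 and 54.8% for Gramd1a. Over all 10489 genes the controls' difference had a median of -0.01, with 5% of genes below -0.37 and 5% above 0.38. Every member but Gpr171 lay between the 93.9 and the 97.4 percentile of that distribution. The tables may have been normalized separately, so levels across them are set side by side and not tested. The Lck controls, also 4 weeks old, were nearer to the 8-week controls for several genes: the 8-week controls were above every control of both 4-week tables for Btg2, Gramd1a and Hsd11b1, and overlapped the Lck controls or lay below them for Gpr171, Prr33, Vamp2, Tdrp and 4732440D04Rik.

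**Figure D2:**
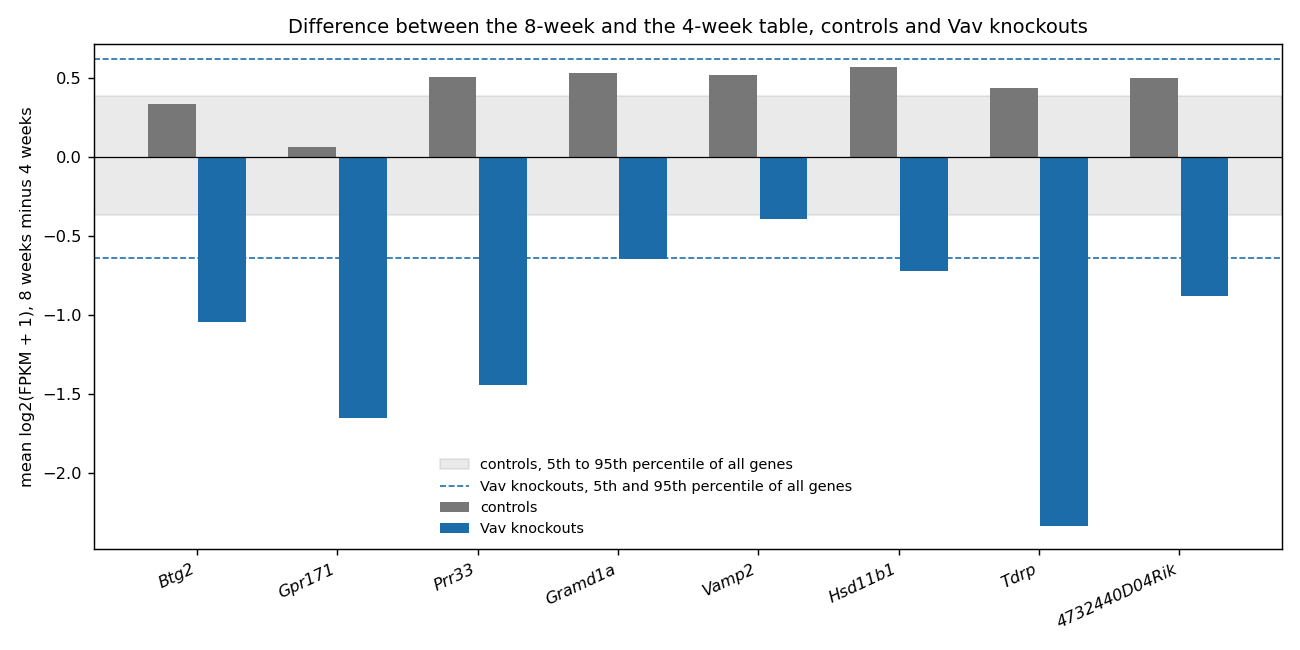
Difference of mean log2(FPKM + 1) between the 8-week table and the Vav table at 4 weeks, for controls (grey bars) and Vav knockouts (blue bars), with the range holding 90% of all genes for controls (grey band) and for knockouts (dashed lines). Bars have no error because the tables were not compared by a test; Gpr171 differs almost wholly in the knockouts (-1.65), Vamp2 more in the controls (0.52) than in the knockouts (-0.40).

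The Lck comparison asked whether deletion from the T cell lineage onward moved these genes at 4 weeks, and its libraries had no part in their choice. In limma's fit 0 of the 8 passed an adjusted p of 0.05, and 1% of the 10946 genes tested did. All 8 confidence intervals (95%) of the log2 change included 0, so none had an unadjusted p under 0.05 either. For Btg2 the change was -0.05 (interval -0.19 to 0.08, adjusted p = 0.751), for Gramd1a -0.16 (-0.39 to 0.08, adjusted p = 0.561), for Hsd11b1 -0.15 (-0.38 to 0.09, adjusted p = 0.584) and for Tdrp -0.13 (-0.29 to 0.02, adjusted p = 0.437). Prr33 had -0.24 (-0.52 to 0.05, adjusted p = 0.445), Vamp2 -0.12 (-0.42 to 0.19, adjusted p = 0.761), 4732440D04Rik -0.01 (-0.31 to 0.28, adjusted p = 0.978) and Gpr171 0.26 (-0.01 to 0.53, adjusted p = 0.386). Falls of the size described for the Vav knockout at 8 weeks lie outside each interval, whereas the 4-week Vav changes of all but Gpr171, Hsd11b1 and Tdrp lie inside it. The difference between Vav and Lck effects was not tested for these genes. Lck groups overlapped for all 8, where 8.27% of genes had every knockout below every control. Mice with LckCre at 8 weeks were not analysed here.

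The transplanted mice, compared with the 8-week controls, show what the genes did in VavCre knockouts that also received wild-type competitor marrow. In limma's fit 5 of the 8 were lower at an adjusted p under 0.05, where 4.6% of 11632 genes were called lower and 9.19% in either direction. The same 5 had all transplanted libraries below all controls, as 12.9% of genes did. They were Btg2 (log2 change -0.96, SE 0.183, adjusted p = 0.0136), Gpr171 (-1.59, SE 0.408, adjusted p = 0.0421), Hsd11b1 (-1.48, SE 0.377, adjusted p = 0.0410), Tdrp (-2.63, SE 0.542, adjusted p = 0.0189) and 4732440D04Rik (-0.99, SE 0.164, adjusted p = 0.00729). Prr33 (-1.11, interval -2.11 to -0.12, adjusted p = 0.149), Gramd1a (-0.95, -2.20 to 0.30, adjusted p = 0.310) and Vamp2 (-0.56, -1.25 to 0.14, adjusted p = 0.284) did not pass, and in each of them transplanted replicate 3 was above every control. The 3 control libraries had entered the choice of the genes, so this count is not independent of it. The count was 8 without transplanted replicate 3, where 14.9% of all genes were called lower, and 0 without any one of control replicates 1, 2 and 3, where 0.76% to 0.786% were. Fitting the controls and transplanted libraries alone, without the untransplanted knockouts, left 1 call, where 2.49% of all genes were called lower.

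**Figure D3:**
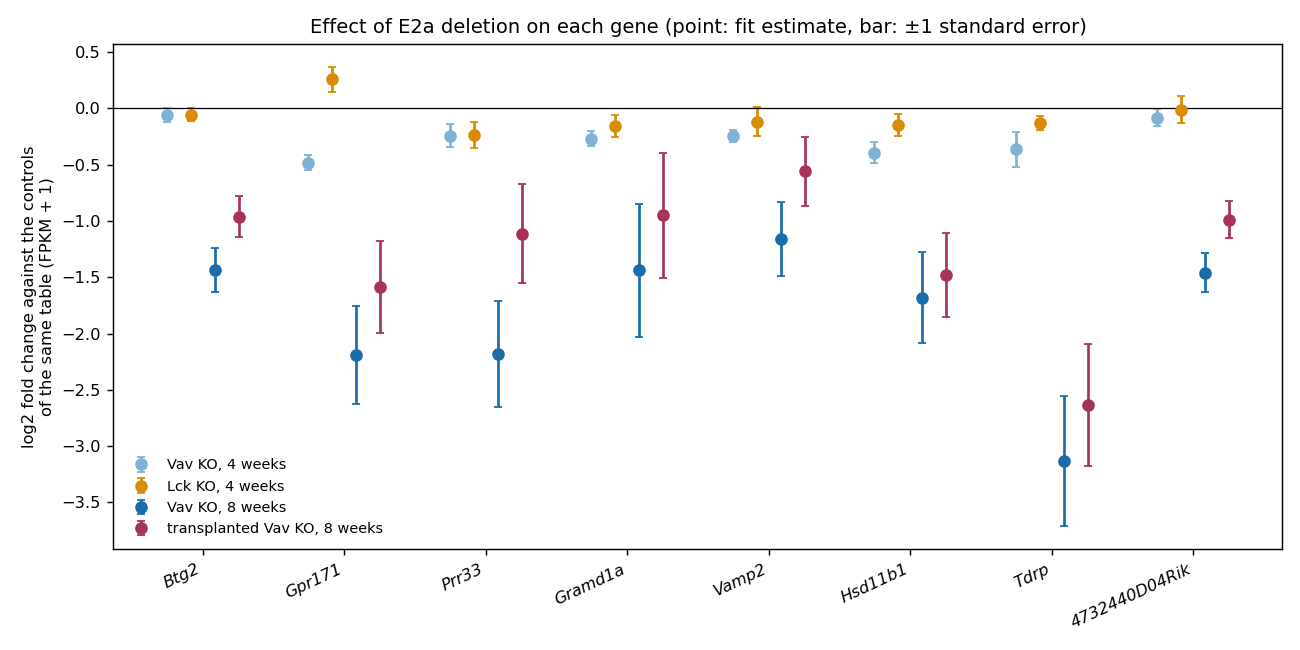
Log2 fold change of each gene against the controls of its table, with bars of ±1 standard error, for the Vav knockout at 4 weeks (light blue), the Lck knockout at 4 weeks (orange), the Vav knockout at 8 weeks (dark blue) and the transplanted Vav knockout (red). The 4-week estimates lie between -0.48 and 0.26, those at 8 weeks between -3.13 and -0.56; the 8-week effects share controls.

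Within the transplanted group, which held both sexes, the libraries were also compared by sex. Transplanted replicates 1 and 2, which like the controls had Xist above Ddx3y, were below all 3 controls for each of the 8 genes. Of all genes tested, 29.1% had this pattern. The 3 controls had entered the choice of the genes, so this count is not independent of it and nothing is read from it. In replicates 1 and 2 Hsd11b1 was 0.594 and 1.28 FPKM and Gramd1a 4.12 and 11.1 FPKM, against at least 7.21 and 25.5 FPKM in the controls. Replicates 3 and 4, with Ddx3y above Xist, were above replicates 1 and 2 for Btg2, Prr33, Gramd1a and Hsd11b1. They had 174 to 203 FPKM of Btg2 against 116 to 165, and 5.88 to 14.8 FPKM of Prr33 against 1.97 to 4.90. Their Gramd1a was 16.5 to 41.5 FPKM and their Hsd11b1 3.94 to 4.20 FPKM. For Gpr171, Vamp2, Tdrp and 4732440D04Rik the 2 pairs overlapped. Whether sex had a part in this was not tested. Among the 4-week Vav controls the library with Ddx3y, replicate 1, had 10.7 FPKM of Prr33 and 8.18 FPKM of Tdrp, above the others, and 241 FPKM of Btg2, below them. With a term for inferred sex, a fit added after the data were seen, 6 of the 8 were called lower in the transplanted group, where 10.2% of all genes were. All controls had Xist above Ddx3y and all untransplanted knockouts the reverse, so only the transplanted libraries set this term. Its estimate is that of replicates 1 and 2 against the controls, and is not separate from the comparison above.

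The transplanted libraries did not share one order over the genes. Replicate 3 was highest for Btg2, Prr33, Gramd1a, Vamp2, Hsd11b1 and 4732440D04Rik, replicate 1 for Gpr171 and replicate 4 for Tdrp. As a share of the control mean, replicate 3 held 152% of Gramd1a, 122% of Vamp2 and 111% of Prr33 but 15.9% of Gpr171 and 1.87% of Tdrp. Replicate 1 held 83.4% of Gpr171 and 2.07% of Tdrp, and replicate 4 held 51.2% of Tdrp and 12.4% of Gpr171. Replicate 2 was the lowest for Prr33 (14.8%), Gramd1a (15.1%), Hsd11b1 (7.73%) and Tdrp (0.761%). The coefficient of variation over the 4 libraries ran from 22% for Btg2 to 178% for Tdrp, and was 109% for Gpr171 and 88.9% for Gramd1a. The median over all tested genes was 30.7% in this group, 12.7% in the untransplanted knockouts and 8.45% in the controls. In the untransplanted knockouts the same genes varied by 2.31% (Hsd11b1) to 22.1% (4732440D04Rik), apart from Tdrp with its few reads (120%). Those libraries entered the choice, which favoured a small spread in them, so nothing is read from their contrast with the transplanted group.

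**Figure D4:**
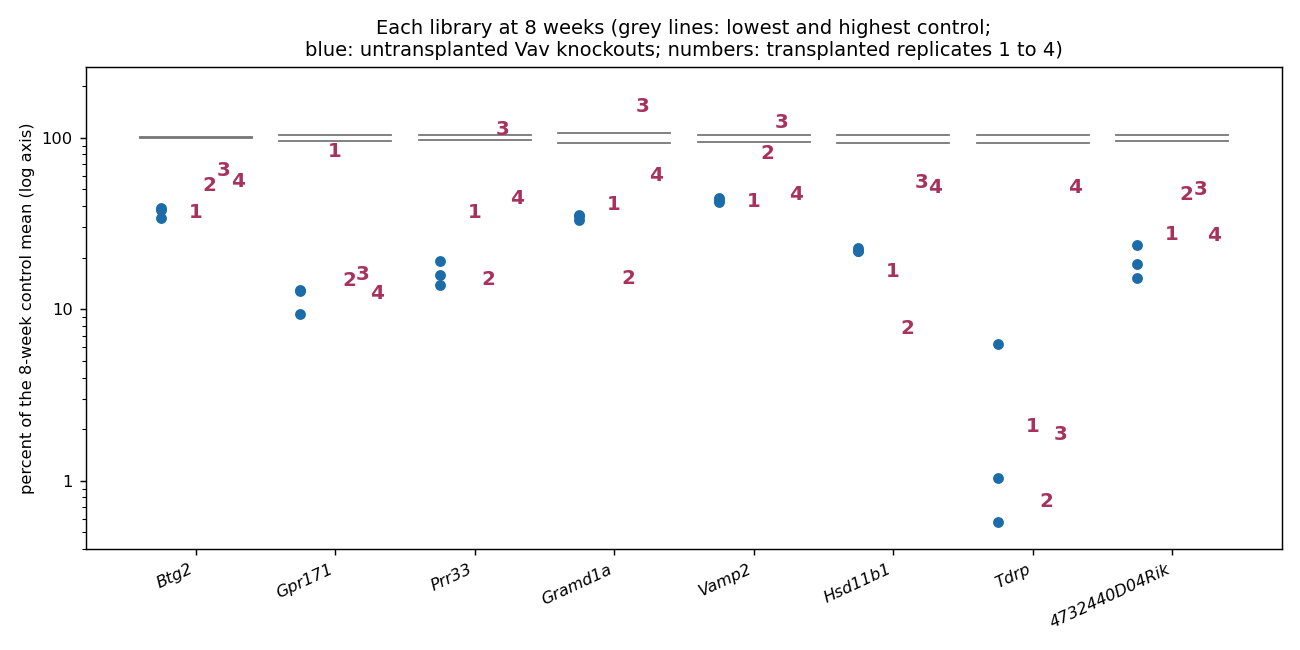
Level of each gene in the 8-week libraries as a percent of the control mean, on a log axis. Grey lines are the lowest and highest control, blue dots the untransplanted Vav knockouts and red numbers the transplanted replicates; replicate 3 exceeds the controls for Prr33, Gramd1a and Vamp2, while replicates 1 and 4 stand apart from the other transplanted libraries for Gpr171 and Tdrp.

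Set against the untransplanted knockouts, the transplanted group had higher fitted values for all 8 genes, by 0.20 (Hsd11b1) to 1.07 (Prr33) on the log2 scale. This is a description, because the low untransplanted values chose the genes. The 4 transplanted libraries were above the 3 untransplanted ones for 4732440D04Rik alone, a pattern seen in 3.46% of genes. The mean of 4732440D04Rik was 1.37 ± 0.443 FPKM (SD, n = 4) after transplantation and 0.697 ± 0.154 FPKM (SD, n = 3) without it. By limma 0 of 11632 genes passed for this contrast, and 681 had an unadjusted p under 0.05.

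Genes related to the 8 by function were counted in lists, none of which contains a member. In the Lck comparison the list medians ran from -0.13 (double-positive stage) to 0.10 (p53 targets), beside 0.02 over all genes. Of 12 tested genes of the BTG/TOB family and the CCR4-NOT complex, 0 passed in the Lck comparison. In the transplanted group 2 rose, Pabpc1 (1.67), the main poly(A)-binding protein, and Cnot6l (0.68), a deadenylase, and 1 fell, Cnot8 (-0.63), another deadenylase. The list median was -0.18 there, beside -0.01 over all genes. Of the p53 targets, of which Btg2 is also one, 0 of 10 passed in the Lck comparison and 1 of 11 rose in the transplanted group, the apoptosis effector Bax (0.70), with a list median of 0.36. Immediate early genes, another class to which Btg2 is assigned, gave 0 of 11 and 0 of 14 (median -0.26).

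Of the P2Y-like receptors and ligands related to Gpr171, 0 of 3 passed in the Lck comparison and 0 of 4 in the transplanted group (median 0.45). Of 21 genes of sterol transport and sensing, 0 passed in the Lck comparison. In the transplanted group 1 rose, Gramd4 (1.62), a GRAM-domain relative of Gramd1a, and 1 fell, Abca1 (-1.91), the cholesterol exporter, with a list median of -0.14. Of 20 SNARE genes 0 passed in the Lck comparison and 3 fell in the transplanted group, Stx7 (-2.47), a syntaxin of late endosomes, Vamp1 (-1.80), the closest relative of Vamp2, and Vamp3 (-0.44), with a median of -0.26. Of 15 glucocorticoid pathway genes 0 passed in the Lck comparison and 1 fell in the transplanted group, Txnip (-0.76), an inhibitor of thioredoxin (median -0.02). Of 18 double-positive stage genes, Plxnd1 (-0.57) and Ptcra (-0.78), a chain of the pre-T cell receptor, fell in the Lck comparison. In the transplanted group 4 fell, led by Rag2 (-3.28), Plxnd1 (-2.98) and Dntt (-1.66), with a median of -0.84.

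In the untransplanted 8-week knockouts the same lists gave these counts, with genes named after their values were seen, where 9.1% of all genes were called in either direction. Pabpc1 (1.95) rose among 12 BTG/TOB and CCR4-NOT genes and Bax (0.79) among 11 p53 targets. Of 14 immediate early genes Fos (3.18) and Junb (1.15) rose and Egr3 (-1.499) and Egr2 (-0.96) fell, and 0 of 4 P2Y-like genes passed. Among 21 sterol genes Gramd4 (1.36) and Srebf2 (0.89) rose and Abca1 (-2.18) and Soat1 (-0.71) fell. Among 20 SNARE genes Vamp1 (-2.11) and Snap23 (-0.48) fell. Of 15 glucocorticoid pathway genes H6pd (-1.37) fell, the enzyme that supplies Hsd11b1 with its reduced cofactor. Of 18 double-positive stage genes Plxnd1 (-3.72), Rag2 (-3.32) and Rag1 (-1.45) fell.

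The genes most like the members over the 22 libraries were ranked by Pearson correlation with the members' mean pattern, each gene taken relative to its table's controls, among 8993 genes. The first 6 were Rgs14 (0.980), a regulator of G protein signalling, Pip4k2a (0.973), a phosphoinositide kinase, Adamts6 (0.971), a secreted metalloprotease, Ldhb (0.966), a lactate dehydrogenase subunit, Mir142hg (0.966), the host transcript of a blood cell microRNA, and Pptc7 (0.964), a mitochondrial phosphatase. These are descriptions: libraries within a table share controls. All 6 had lower means in Vav knockouts than in controls at both ages. Adamts6 had means of 7.76 and 5.17 FPKM in controls and knockouts at 4 weeks and of 6.49 and 0.321 FPKM at 8 weeks, and lay between 0.762 and 1.44 FPKM in the transplanted libraries. Ldhb had means of 316 and 219 FPKM at 4 weeks and 349.8 and 94.0 FPKM at 8 weeks. Among the members, Btg2 followed the mean of the other members most closely (0.963) and Gpr171 (0.813) and Vamp2 (0.819) least.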

How the data were processed

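Total RNA of the sorted thymocytes was isolated with RNeasy kits and libraries were built with NuGEN Ovation Ultralow reagents, per the labels' protocols. Values per gene are FPKM as the authors deposited them, in 3 tables of 43430 genes, 42546 of which were matched to a GENCODE symbol. The submitters' processing notes name Trimmomatic 0.33, STAR, HTSeq 0.6.1, DESeq2 and the build mm10, with no role or order. Gene lengths and the use of strand in counting are not given in the sources used here. Columns were matched by name, 0 were left over, and 0 pairs of libraries were identical.

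Depth was inferred from the lowest FPKM values, of which 50.2% to 58.9% were whole multiples of a read within 0.03. Since this is too few to recover the tables, no count model was used. For 7 of the 8 genes, all but Gramd1a, a gene length was found at which all 22 values were whole reads (largest distance 0.0412, for Btg2), and read numbers come from there; they measure counting error only.

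Values were put on the scale log2(FPKM + 1) and fitted by limma 3.58.1 with its trend option (R 4.3.3). A gene had to reach 1 FPKM in 3 libraries of the table or more, which all 8 did. Adjusted p-values (Benjamini-Hochberg, over all genes tested) under 0.05 were called. The 8-week fit held all 10 libraries of its table. Confidence intervals are 95%. The scale understates changes of low genes. The fits were tested on simulated data before use.

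The members and the 8 lists (BTG/TOB and CCR4-NOT, p53 targets, immediate early, P2Y-like receptors, sterol transport and sensing, SNARE machinery, glucocorticoid pathway, double-positive stage) were chosen with earlier results of these data known. Other genes were named by rule: the 6 most like the members' mean, and up to 3 called members of a list in the Lck or the transplanted comparison, by size. Exceptions are marked in the text. Alternatives were other pseudocounts, filters, scalings and variance settings, a replicate block, fits of only the groups compared, leaving out each library, and a sex term added later. Promoter windows came from RefSeq.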

Additional observations from a re-analysis of the deposited data

Results flagged for a closer look

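In the transplanted group, the highest library stood apart from the other libraries for 2 of the 8 genes, by the share of the group's range that its gap to the next library took (critical value 0.829 for 4 libraries). For normally distributed values such a gap arises by chance in about 1 in 20 groups. The gaps were taken on FPKM, and their share over all genes was not computed, so nothing is read from this count. Gpr171 was at 6.36 FPKM in transplanted replicate 1 and at 0.946 to 1.21 FPKM in the others, a gap of 0.951 of the range. Tdrp was at 5.03 FPKM in transplanted replicate 4 and at 0.0748 to 0.203 FPKM in the others, a gap of 0.974 of the range. These were different libraries, and neither was the replicate 3 that was highest for the other genes.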

How the results depend on the processing

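Replicate numbers did not pair the libraries (correlations of same-numbered deviations from -0.109 to 0.181), so a replicate block gives only an alternative fit. With the block 4 of the 8 genes were called in the transplanted group, 4 in the untransplanted Vav knockout at 8 weeks, 1 in the Vav knockout at 4 weeks and 0 in the Lck knockout, and transplanted replicate 4, with no partner, no longer contributed. Over all genes the block called 568, 568, 894 and 4, where the fit without it called 1069, 1059, 1484 and 110.

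For the transplanted group the count of 5 became 3 without a filter, 1 with a mean of 5 FPKM or more (4 of the genes tested), 1 with only the 2 groups compared, and 0 to 8 when single libraries were left out. Over all genes 4.6% were called lower in the main fit. The shares in these alternatives were 2.59%, 4.41%, 2.49% and 0.76% to 14.9%, in the same order. The Vav contrasts at 4 and 8 weeks chose the genes, so their counts are listed for completeness and nothing is read from them. For the Vav knockout at 8 weeks the count of 6 (4.45% of all genes were called lower) became 2 with a mean of 5 FPKM or more (4.76%) and 2 to 3 when single libraries were left out (0.576% to 2.15%). For the Vav knockout at 4 weeks the count of 4 (6.08%) became 2 without a filter (2.7%) and 1 to 2 when single libraries were left out (1.76% to 7.51%). The Lck count was 0 in every alternative run. Fewer genes or libraries entered the stricter fits; the cause of the other changes was not tested.

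Signs turned for some values near 0. In the Lck comparison 4732440D04Rik was at 0.12 without Lck knockout replicate 3, and likewise with the sex term, and at 0.04 without Lck control replicate 1, in a range of -0.0959 to 0.12 with single libraries left out. The sex term there fits Lck knockout replicate 3 alone, the only Lck library with Xist above Ddx3y. For transplanted against untransplanted knockouts Hsd11b1 was at -0.0217 and Tdrp at -0.0988 with the replicate block, as without transplanted replicate 4. With single libraries left out Gramd1a ran from -0.0230 (without transplanted replicate 3) to 0.995, Hsd11b1 from -0.0465 (without the same) to 0.522 and Tdrp from -0.0988 to 0.73. No member's sign turned in the other comparisons.

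Over all genes, calls in the transplanted group numbered 575 with a mean of 5 FPKM, 552 with only the 2 groups, 2546 with the sex term and 199 to 3814 with single libraries left out. For the Vav knockout at 8 weeks these were 653, 5005, 2839 and 142 to 482, and at 4 weeks 927 with the mean filter and 490 to 1560 with libraries left out. The Lck comparison called 63 without a filter, 26 with the sex term and 2 to 83 with libraries left out. When libraries were scaled to a common sum, 603 genes were higher and 1003 lower at 4 weeks for Vav, in place of 826 and 658, and 4 and 87 for Lck, in place of 22 and 88. It put the median of all genes at -0.12 in the Vav knockout at 8 weeks.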
